A study of Mus musculus with 8 samples.

Results

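The coagulation and fibrinolysis genes described here are Plat, Plau, Plaur, F3, Thbd, Tfpi, F13a1, Vwf and Procr. Each was followed through the array probes named by a RefSeq transcript of that gene, and the brightest probe that the scanner software called well above background on 4 or more of the 8 arrays stood for the gene. All 9 genes had such a probe, among 15156 genes with a retained probe on the array, and the 9 genes together had 13 retained probes. RNA came from the ventricles of adult male C57BL\6 mice 24 hours after surgery, with 1 array per mouse. The 4 MI mice had a permanent ligation of the anterior interventricular artery, and the 4 sham-operated mice underwent the same operation without the ligature. No transgene, knockout or drug separated the groups, and both groups had a thoracotomy. All 8 mice also had an FDG-PET exam 24 hours after surgery, under isoflurane and with injections of Acipimox and FDG. Ventricles were lysed whole, so each MI sample mixes infarcted muscle with muscle outside the infarct, and in such RNA more cells of a type and more RNA per cell cannot be told apart.

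Clotting starts when tissue factor, the product of F3, meets factor VII of the plasma, and it ends when thrombin turns fibrinogen into fibrin. Fibrinolysis runs the other way: tissue and urokinase plasminogen activators convert plasminogen to plasmin, which cuts fibrin, and inhibitors of the serpin family block both steps. Endothelial cells of the heart hold the balance with a set of anticoagulant surface proteins, among them thrombomodulin and the endothelial protein C receptor.

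RNA was labeled in 1 colour, and values are normalized log2 signals on the spike-in scale of the authors. Detection was similar over the arrays, with 58.6% to 66.4% of spots well above background, and no spot of the 9 genes' brightest probes was saturated. All 10 cardiomyocyte marker genes were well above background on all 8 arrays, as the ventricle label says. Differences are MI minus sham, a gene passed at an adjusted p under 0.05 in limma with adjustment over 34038 probes, and 4 arrays per group limit the precision of every value. Exact two-sided permutation tests are given for single values, and with 4 mice per group their p cannot go below 0.0286.

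Of the 9 genes, 5 passed the test as higher in MI mice (Plaur, Procr, Thbd, Plat and Plau), 0 as lower, and 4 did not pass (F3, F13a1, Vwf and Tfpi). Plau was retained through the MI arrays alone, with 3 of 4 sham arrays not well above background, so its count is no support, and the other 8 genes were well above background on all 8 arrays. Plaur and Procr were also more than 2-fold higher. Over all retained probes, 7.61% were called, 6.30% as higher and 1.31% as lower, and with a fold change over 2 these shares were 3.07% and 0.405%. The median difference over all retained probes was 0.12. The groups did not overlap for 4 of the 9 genes, all of them higher in MI mice, beside 8.46% of all probes with non-overlapping groups that were higher in MI mice and 2.70% that were lower. Of the genes measured on all arrays, both genes of plasminogen activation (Plaur and Plat) rose, 2 of the 3 endothelial anticoagulants rose, and 0 of the 3 genes that start clotting, cross-link fibrin or tether platelets passed the test.

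**Figure D1:**
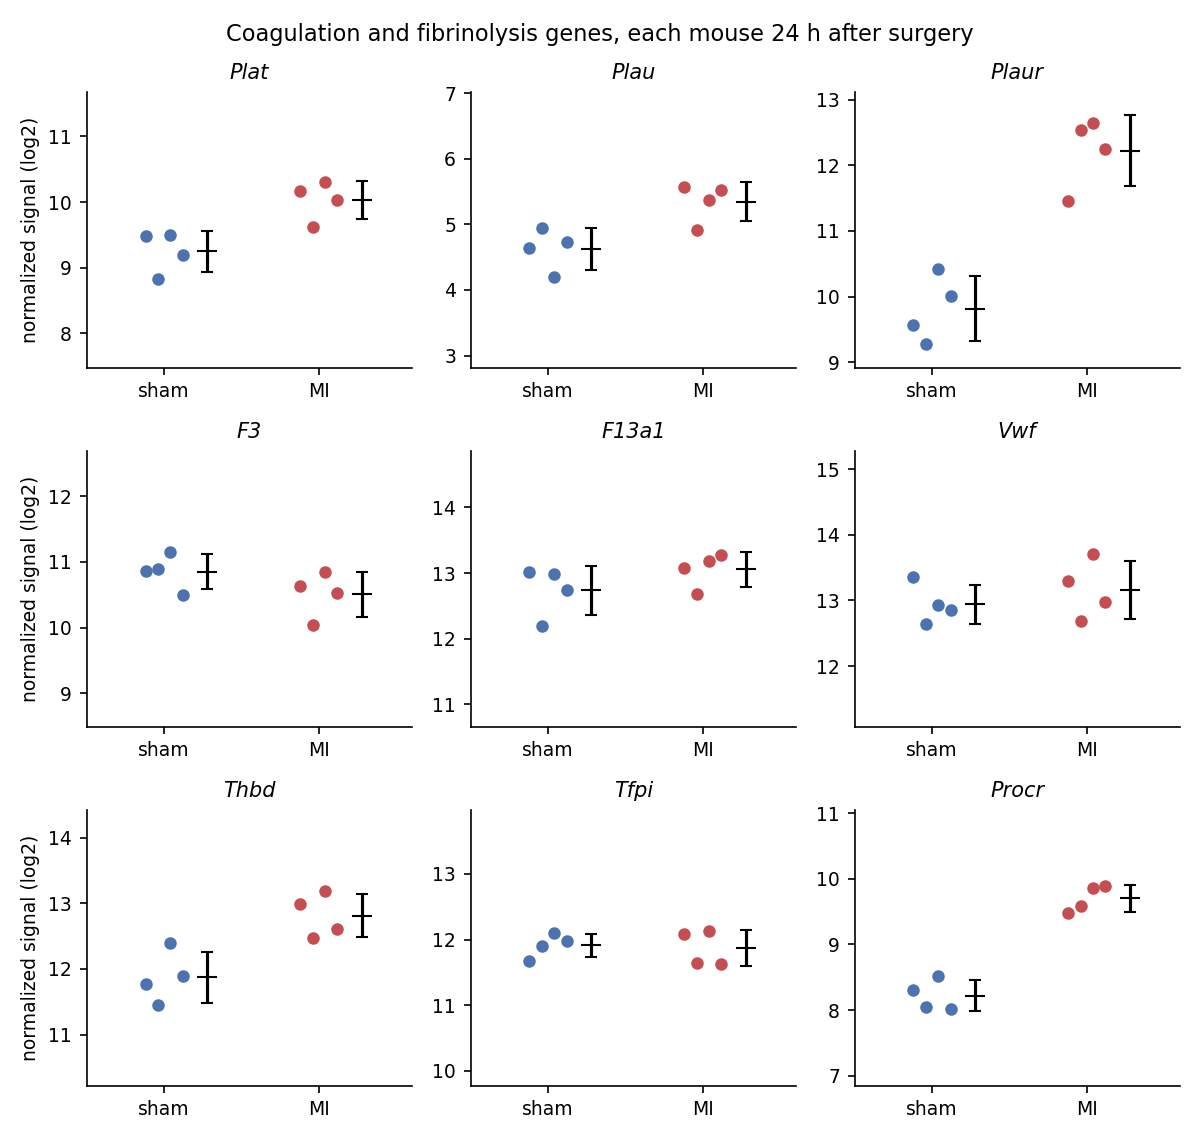
Normalized log2 signal (vertical axis, with the same span in every panel) of the 9 genes in each sham-operated mouse (blue points) and each MI mouse (red points), with the mean and SD of each group (n = 4) in black. For Plaur, Procr, Thbd and Plat all MI mice lie above all sham-operated mice, with MI means of 12.22, 9.70, 12.81 and 10.03 against sham means of 9.82, 8.22, 11.88 and 9.25.

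Plaur encodes the urokinase receptor, which holds urokinase at the cell surface and is also carried by neutrophils and monocytes. It had the largest difference of the 9 genes. Its normalized log2 signal was 11.45, 12.54, 12.64 and 12.25 in MI mice 1 to 4 and 9.57, 9.27, 10.41 and 10.01 in sham-operated mice 1 to 4. The lowest MI mouse, MI mouse 1, lay above the highest sham-operated mouse. The means were 12.22 ± 0.54 and 9.82 ± 0.50 (SD, n = 4 per group), a log2 difference of 2.40 (SE 0.26), or 5.30-fold (95% CI 3.64 to 7.72). The adjusted p in limma was 3.50e-07, and the exact permutation test gave the smallest p possible, 0.0286. An unmoderated test in place of limma gave an adjusted p of 0.0351. Within the first and the second row of arrays on the slide, which each held 2 mice of each group, the log2 difference was 2.57 and 2.24. On the scale of the scanner, before any normalization between arrays, the processed intensity of the Plaur probe spanned 2694 to 7513 in the MI group, against 601 to 1023 in the sham group.

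Procr encodes the endothelial protein C receptor, which presents protein C to the complex of thrombin and thrombomodulin. Its normalized log2 signal was 9.47, 9.59, 9.85 and 9.90 in MI mice and 8.30, 8.05, 8.52 and 8.02 in sham-operated mice. Each group spanned less than 1 log2 unit and the groups did not overlap. The means were 9.70 ± 0.21 and 8.22 ± 0.23 (SD, n = 4 per group), a log2 difference of 1.48 (SE 0.21), or 2.79-fold (95% CI 2.07 to 3.76), with an adjusted p of 1.72e-05 in limma. The log2 difference was 1.36 in the first row of arrays and 1.61 in the second. Plaur and Procr passed in all 21 alternative settings, with log2 differences of 2.18 to 2.66 for Plaur and 1.06 to 1.58 for Procr.

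The promoters of these 2 genes are shown beside that of F3, which did not rise, because all 3 hold the AP-1 motif TGANTCA, the letters bound by Fos and Jun proteins. Each line gives the 250 bases before the start site from RefSeq, in build GRCm38.p6, 5′ to 3′ on the gene's strand, with the AP-1 matches in capitals. The windows are chr7:24462233-24462482 for Plaur, chr2:155750967-155751216 for Procr and chr3:121723287-121723536 for F3, all on the plus strand.
Plaur: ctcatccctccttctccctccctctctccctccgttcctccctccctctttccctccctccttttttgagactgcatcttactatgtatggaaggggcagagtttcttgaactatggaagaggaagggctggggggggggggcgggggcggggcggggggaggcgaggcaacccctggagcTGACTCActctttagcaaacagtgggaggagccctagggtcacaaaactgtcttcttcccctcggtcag
Procr: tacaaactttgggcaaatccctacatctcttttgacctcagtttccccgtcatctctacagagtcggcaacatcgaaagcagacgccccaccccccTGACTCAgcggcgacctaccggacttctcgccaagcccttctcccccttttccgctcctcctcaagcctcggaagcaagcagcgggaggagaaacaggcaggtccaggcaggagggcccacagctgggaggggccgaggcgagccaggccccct
F3: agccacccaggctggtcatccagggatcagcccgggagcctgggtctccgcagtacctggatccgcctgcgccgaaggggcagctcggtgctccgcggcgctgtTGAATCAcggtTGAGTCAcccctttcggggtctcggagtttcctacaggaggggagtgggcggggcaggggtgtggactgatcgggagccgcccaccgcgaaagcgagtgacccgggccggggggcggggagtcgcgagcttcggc
The match began 69 bases before the start site in Plaur and 154 bases before it in Procr, and F3 held 2 matches, at 146 and 135 bases. Windows were found for 5 of the 9 genes, and those of Tfpi and F13a1 held no match to TGANTCA. Of all 32851 promoter windows of this length, 6.75% held the motif on either strand. The Sp1 letters GGGCGG stood 3 times in Plaur, 3 times in F3 and 0 times in Procr, beside 32.7% of all windows with a match, and a pair of the matches in Plaur share a base. The search found no match to its NF-kB motif (7.25% of all windows) or to the hypoxia response core ACGTG (16.6%) in the 5 genes' windows. The letters searched for NF-kB are not given here, so a site with other letters could still be present, also in F3. A gene that rose by 2.40 log2 units and a gene that did not pass the test both carried the AP-1 letters, and these matches describe the windows only.

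Plat encodes tissue plasminogen activator, which endothelial cells release and which works on plasminogen bound to fibrin. Its normalized log2 signal was 10.16, 9.62, 10.31 and 10.03 in MI mice and 9.48, 8.82, 9.50 and 9.20 in sham-operated mice. The groups did not overlap, but MI mouse 2 lay close to the highest sham-operated mice. The means were 10.03 ± 0.30 and 9.25 ± 0.32 (SD, n = 4 per group), a log2 difference of 0.78 (SE 0.22), or 1.72-fold (95% CI 1.26 to 2.36), with an adjusted p of 0.0264 in limma and 0.0286 in the exact permutation test. The 2 array rows gave 0.74 and 0.82. The call held in 13 of 21 alternatives. It was lost without MI mouse 1 (log2 difference 0.74, adjusted p = 0.0755), MI mouse 3 (0.69, adjusted p = 0.0976), sham-operated mouse 2 (0.64, adjusted p = 0.104) or sham-operated mouse 4 (0.77, adjusted p = 0.0635). The call was also lost with a model refitted on the spike-in spots (adjusted p = 0.0612) and with a spike-in shift alone (adjusted p = 0.0730). Further losses came with an unmoderated test (adjusted p = 0.161) and without the filter on detection.

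Plau encodes urokinase, the ligand of the Plaur product. Its probe was dim, with processed intensities of 30, 19, 32 and 37 in MI mice and 14, 13, 11 and 13 in sham-operated mice, and it was well above background on 4 MI arrays and on 1 sham array. The normalized log2 signal was 5.57, 4.91, 5.37 and 5.52 in MI mice and 4.64, 4.94, 4.19 and 4.73 in sham-operated mice. MI mouse 2 lay just below sham-operated mouse 2, so the groups overlapped. The log2 difference was 0.72 (SE 0.22), or 1.64-fold (95% CI 1.20 to 2.25), with an adjusted p of 0.0450 in limma and 0.0571 in the exact permutation test, and with 0.45 and 0.98 in the 2 array rows. This call held in 6 of 20 alternatives, and it was lost in the fit that left out any of MI mice 1, 3 and 4 or sham-operated mice 1, 3 and 4 (adjusted p of 0.0654 to 0.157). In the deposited log2 values, which leave spots not above background empty, the log2 difference was 0.70, from 4 MI mice and 1 sham-operated mouse. An arm of 1 mouse shows no spread, so no test of it is given. This setting and that with missing values for such spots are counted among the 20 alternatives.

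Thbd encodes thrombomodulin, the endothelial receptor that turns thrombin from a clotting enzyme into an activator of protein C. Its normalized log2 signal was 12.99, 12.47, 13.19 and 12.60 in MI mice and 11.77, 11.45, 12.39 and 11.89 in sham-operated mice. All MI mice lay above all sham-operated mice, with sham-operated mouse 3 closest to the MI group. The means were 12.81 ± 0.33 and 11.88 ± 0.39 (SD, n = 4 per group), a log2 difference of 0.94 (SE 0.23), or 1.92-fold (95% CI 1.38 to 2.66), with an adjusted p of 0.00973 in limma. The array rows gave 1.12 and 0.76, and the call held when any single mouse was left out. It was lost without the filter on detection (adjusted p = 0.113) and with an unmoderated test in place of limma (adjusted p = 0.159). Thrombomodulin and the protein C receptor act on the same reaction, and both transcripts were higher in every MI mouse than in any sham-operated mouse.

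Tfpi encodes tissue factor pathway inhibitor, which blocks the complex of tissue factor and factor VIIa. Its brightest probe read 12.09, 11.64, 12.14 and 11.64 in MI mice and 11.68, 11.90, 12.10 and 11.97 in sham-operated mice. The groups overlapped over most of their range, and the log2 difference was -0.04 (SE 0.21, 95% CI -0.47 to 0.39, adjusted p = 0.946). That interval leaves out a change of the size of Procr, whose own interval began at 1.05.

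F3 encodes tissue factor, which cardiomyocytes and cells around vessels express in the normal heart. Its brightest probe read 10.63, 10.03, 10.84 and 10.53 in MI mice and 10.86, 10.89, 11.15 and 10.49 in sham-operated mice. MI mouse 2 was the lowest and sham-operated mouse 3 the highest, with overlap between the groups. The log2 difference was -0.34 (SE 0.22, 95% CI -0.79 to 0.12, adjusted p = 0.430), with -0.55 and -0.13 in the array rows. Under background correction with normexp it was -0.41 with an adjusted p of 0.0402, the only one of the 21 alternatives that called F3. With each array scaled to its 75th percentile it was -0.47 (adjusted p = 0.0592).

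F13a1 encodes the A chain of factor XIII, the transglutaminase that cross-links fibrin and that macrophages and platelets contain. Its brightest probe read 13.07, 12.68, 13.19 and 13.28 in MI mice and 13.01, 12.20, 12.98 and 12.75 in sham-operated mice, a log2 difference of 0.32 (SE 0.22, 95% CI -0.14 to 0.78, adjusted p = 0.470). The groups overlapped, with sham-operated mouse 2 lowest of all. Vwf encodes von Willebrand factor, the endothelial and platelet protein that tethers platelets to an injured vessel wall. It read 13.30, 12.68, 13.71 and 12.97 in MI mice and 13.35, 12.65, 12.93 and 12.85 in sham-operated mice, a log2 difference of 0.22 (SE 0.23, 95% CI -0.26 to 0.70, adjusted p = 0.664). MI mouse 3 was the highest and sham-operated mouse 1 the second highest, so the groups overlapped here too.

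**Figure D2:**
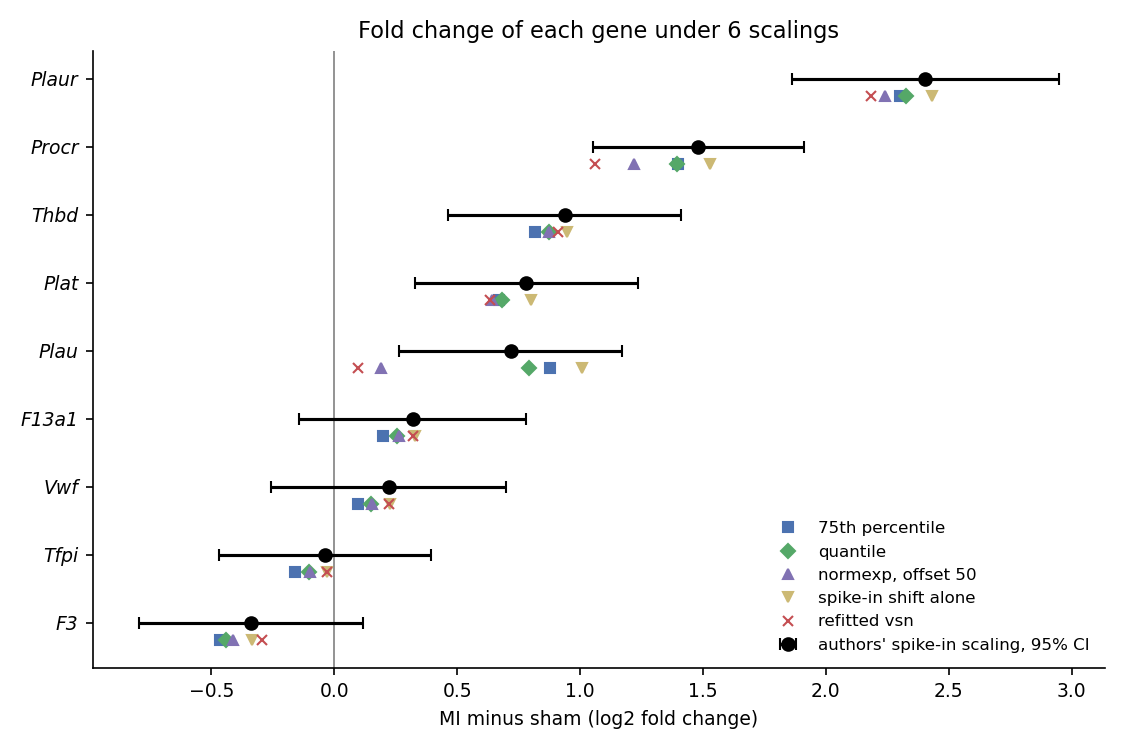
Log2 difference, MI minus sham (horizontal axis), of the brightest probe of each gene, with its 95% CI on the authors' spike-in scaling (black) and the value under 5 other scalings (coloured symbols). Plaur, Procr, Thbd and Plat stay above 0.6 under all of them, whereas the dim probe of Plau runs from 0.09 to 1.01. The call of Plat was lost with the refitted model and with the spike-in shift alone.

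The scaling of the arrays moved the differences of all probes, and the spike-in scale is the one that the study chose. With each array scaled to its 75th percentile, the median difference over all probes was -0.02 in place of 0.12, and 8.69% of the probes were called higher and 8.80% lower. On that scale the same 5 genes passed as higher and 0 as lower, with log2 differences of 2.30 for Plaur, 1.40 for Procr, 0.88 for Plau, 0.82 for Thbd and 0.67 for Plat. None of the 9 genes changed sign under the 5 other scalings. Plau moved most, since its intensities were of the size of the constants, 3.16 to 19.6, that the normalization adds to each array. Where a model of the spike-in spots was refitted with larger constants its difference was 0.09 (adjusted p = 0.561), and without any constant it was 1.01.

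Of the 9 genes, 3 had more than 1 retained probe. For F3 the dimmer probe differed by -0.08 (adjusted p = 0.894), and for Tfpi the dimmer probes differed by -0.01 (adjusted p = 0.993, with 3 MI mice, since the spot of MI mouse 2 was an outlier) and 0.15 (adjusted p = 0.759). The dimmer probe of F13a1 read 6.28, 5.94, 6.61 and 6.16 in MI mice and 5.77, 5.18, 5.14 and 5.54 in sham-operated mice. Its groups did not overlap, and its log2 difference was 0.84 (SE 0.22, 95% CI 0.39 to 1.29, adjusted p = 0.0149). The probes of F13a1 therefore stand on either side of the threshold, and their intervals overlap. F10, which encodes factor X and is not one of the 9 genes, showed a wider gap that was noticed after its values were seen. Its brightest probe, at processed intensities of 392370 to 508870 on the 8 arrays, differed by -0.06 (adjusted p = 0.915), and its other retained probe by 1.94 (SE 0.23, adjusted p = 1.02e-06), from 8.06 to 9.06 in sham-operated mice to 10.30 to 10.66 in MI mice. Whether the brightest probe measures F10 is uncertain, and so is its place among the genes that did not pass.

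**Figure D3:**
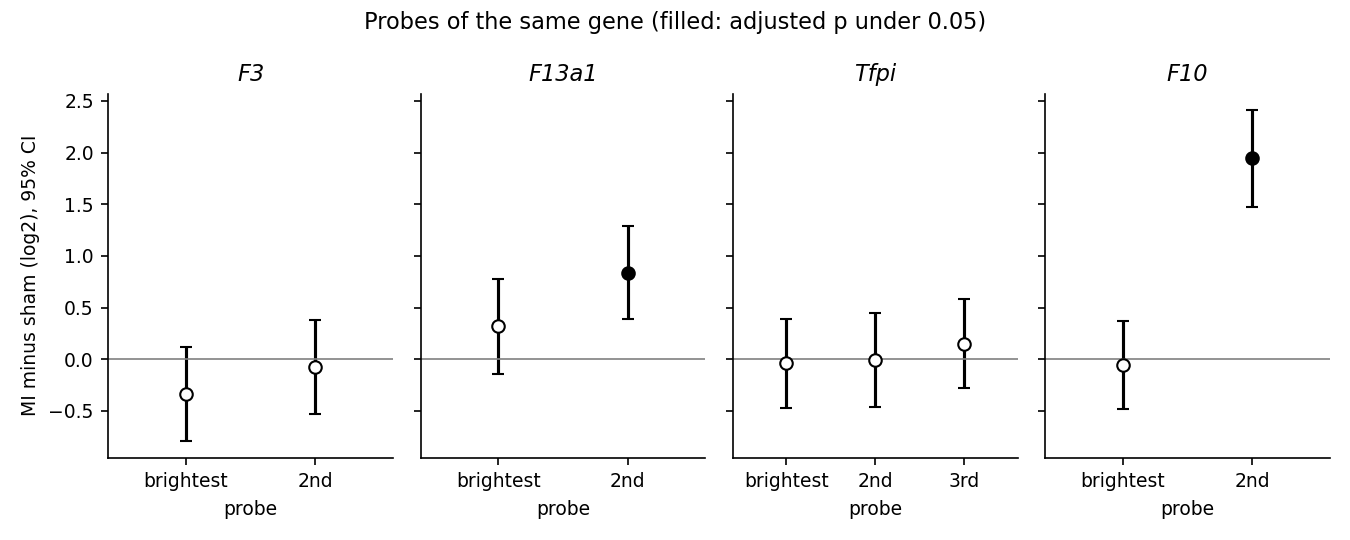
Log2 difference, MI minus sham, with its 95% CI (vertical axis) for each retained probe of F3, F13a1, Tfpi and F10, ordered by brightness (horizontal axis). Filled points have an adjusted p under 0.05. The probes of F3 and Tfpi lie together, those of F13a1 lie at 0.32 and 0.84, and those of F10 lie apart at -0.06 and 1.94.

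Among 44 other genes of coagulation and fibrinolysis, 33 had a retained probe, of which 5 rose, 1 fell and 27 did not pass the test, with a median difference of 0.028. Over all retained probes, 6.30% were called higher and 1.31% lower. Among the 5 that rose, Tfpi2 was retained through the MI arrays alone, so its count is no support. In the list of fibrinolysis inhibitors, 1 of 5 genes rose and 1 fell. Serpinb2, which encodes a serpin that inhibits urokinase, read 7.70, 8.25, 7.14 and 8.43 in MI mice and 6.59, 6.00, 7.07 and 6.06 in sham-operated mice. The groups did not overlap, although MI mouse 3 and sham-operated mouse 3 nearly met, and the log2 difference was 1.45 (SE 0.27, adjusted p = 0.000630), or 0.63 (adjusted p = 0.0723) with the refitted spike-in model. Serpini1, which encodes neuroserpin, fell by 0.76 (SE 0.21, adjusted p = 0.0240), and the call was lost without sham-operated mouse 1 (adjusted p = 0.0757) or sham-operated mouse 3 (adjusted p = 0.0569). A second probe of Serpini1 differed by -0.38 (adjusted p = 0.342).

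Of 7 genes for plasminogen and the proteins that bind it, 6 were measured and 2 rose. They were Anxa2, which encodes annexin A2, a cell surface partner of tissue plasminogen activator (0.89, SE 0.21, adjusted p = 0.00641), and Eno1, a glycolytic enzyme that also binds plasminogen (0.83, SE 0.24, adjusted p = 0.0331). The groups overlapped for Eno1 (p = 0.0571 in the exact permutation test), and its call held in 12 of 21 alternatives. The call of Eno1 was lost without MI mouse 1 or 3 or sham-operated mouse 2 or 4 (adjusted p of 0.0679 to 0.119). Losses also came with the refitted model (adjusted p = 0.118) and with the spike-in shift alone (adjusted p = 0.0939). Of 8 anticoagulant genes beside those of the 9, 6 were measured and 2 rose. Serpind1, which encodes heparin cofactor II, differed by 1.28 (SE 0.21, adjusted p = 0.000156), or by 0.35 (adjusted p = 0.0529) with the refitted model. Tfpi2, a relative of Tfpi, was retained through the MI arrays alone, with its probe well above background on 4 MI arrays and 1 sham array. It differed by 1.52 (SE 0.24, adjusted p = 9.35e-05), or by 0.24 (adjusted p = 0.0867) with the refitted model. Among the 9 of 14 plasma coagulation factors, the 5 of 6 genes of factor processing and the 2 of 4 protease-activated receptors that were measured, 0 passed in either direction by their brightest probe. Dimmer probes of 2 coagulation factors did pass, that of F10 (1.94) and that of F7 (0.75, SE 0.23, adjusted p = 0.0486), for which the brightest probe differed by 0.46 (adjusted p = 0.208). The groups of the dimmer F7 probe overlapped, and its call was lost under all 5 other scalings (adjusted p of 0.0624 to 0.323). The 11 genes without a retained probe were F2, F12, F13b, Fgb, Fgg, Adamts13, F2rl1, F2rl2, Serpina5, Proz and Plg.

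**Figure D4:**
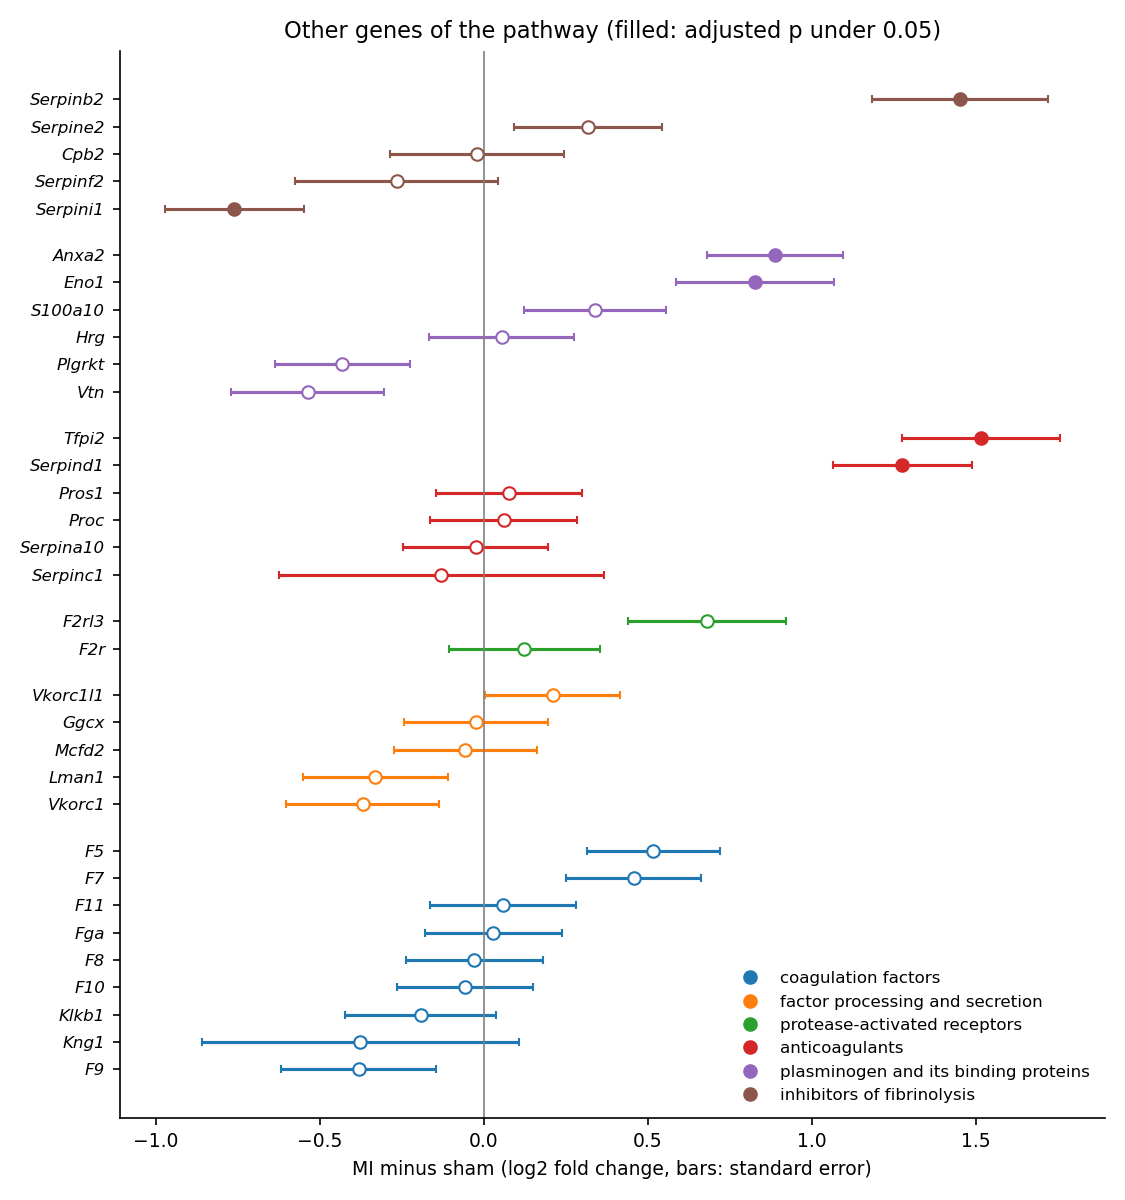
Log2 difference, MI minus sham, with its standard error (horizontal axis) for the 33 measured genes beside the 9, grouped by role. Filled points have an adjusted p under 0.05. Tfpi2 (1.52, with 1 sham array above background), Serpinb2 (1.45) and Serpind1 (1.28) lie farthest to the right, and Serpini1 (-0.76) is the filled point on the left.

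Markers of the cells that carry these transcripts moved unequally. Beside the counts of each list, 6.30% of all retained probes were called higher and 1.31% lower, and 3.07% were called higher by more than 2-fold. Of 11 endothelial markers, 0 passed in either direction, with a median difference of 0.02. Their summed linear signal was 61806 to 79725 in MI mice and 66376 to 94790 in sham-operated mice, with overlap between the groups. These sums came mostly from the bright Egfl7 (-0.14), Kdr (-0.16) and Flt1 (-0.25), so the other markers weigh little in them. The part of endothelial cells in the differences of Thbd, Procr and Plat was not tested. All 11 endothelial markers were well above background on all 8 arrays, and they ran from -0.33 for Cldn5 to 0.65 for Pecam1 (adjusted p = 0.109). The count of 0 depended on the scaling. Pecam1 passed as higher with the 75th percentile (0.53, adjusted p = 0.0364), quantile (0.54, adjusted p = 0.0352) and normexp (0.48, adjusted p = 0.0196). Emcn passed as higher with normexp (0.35, adjusted p = 0.0281), and Flt1 as lower with the 75th percentile (-0.37, adjusted p = 0.0473). Of 10 neutrophil markers 7 rose, 6 of them more than 2-fold, with a median difference of 2.78 and summed signals of 251248 to 369742 in MI mice and 76509 to 121160 in sham-operated mice. The sums of the sham-operated mice came mostly from Csf3r and Lcn2, which did not pass (0.08, adjusted p = 0.878, and 0.64, adjusted p = 0.174). Retnlg rose most (4.24) and Csf3r differed least (0.08). Ngp was well above background on 0 sham arrays, so its count is no support. The part of neutrophils in the difference of Plaur was not tested.

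Of 9 platelet markers 2 rose, namely Ppbp (1.08, adjusted p = 0.00261) and Itga2b (0.94, adjusted p = 0.0378), with Treml1 lowest (0.096) and a list median of 0.39. Itga2b was dim, with 3 of 4 sham arrays well above background, and its groups overlapped. Its call was lost under all 5 other scalings (adjusted p of 0.0690 to 0.392). Summed signals were 19900 to 30900 in MI mice and 15970 to 18185 in sham-operated mice. These sums came mostly from Pf4, which did not pass (0.53, adjusted p = 0.131). Vwf, a gene of platelets and endothelium, differed by 0.22 beside the platelet markers. Of 10 markers of monocytes and macrophages, 8 were measured, and Cd68 and Ly6c2 had no retained probe with a symbol through RefSeq accessions. Among the 8, Ccr2 rose (1.15) and the others did not pass, down to -0.64 for Cx3cr1, with a median of 0.17. Their summed signals overlapped, 9631 to 17362 in MI mice and 11455 to 17684 in sham-operated mice. From these arrays the paper reports higher CD68, a monocyte and macrophage marker, and higher CD45, a leukocyte marker, in MI mice. The list therefore leaves out a marker that the paper found higher. Of 10 cardiomyocyte, 8 fibroblast and 6 mesothelial markers 0 passed in either direction (medians -0.06, -0.41 and -0.12, with extremes at -0.37 for Atp2a2 and 0.51 for Actn2, -0.75 for Col3a1 and 0.40 for Tcf21, and -0.37 for Upk1b and 0.39 for Msln), and of 6 smooth muscle markers Acta2 rose (1.46, list median -0.09, lowest Rgs5 at -0.34). Counts of these lists also depended on the scaling. Rgs5 passed as lower with the 75th percentile (-0.46, adjusted p = 0.0245), quantile (-0.40, adjusted p = 0.0317) and normexp (-0.40, adjusted p = 0.00962). Actc1, a cardiomyocyte marker, passed as higher with normexp (0.31, adjusted p = 0.0126). The part of the cells of all these lists in the differences of the 9 genes was not tested.

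**Figure D5:**
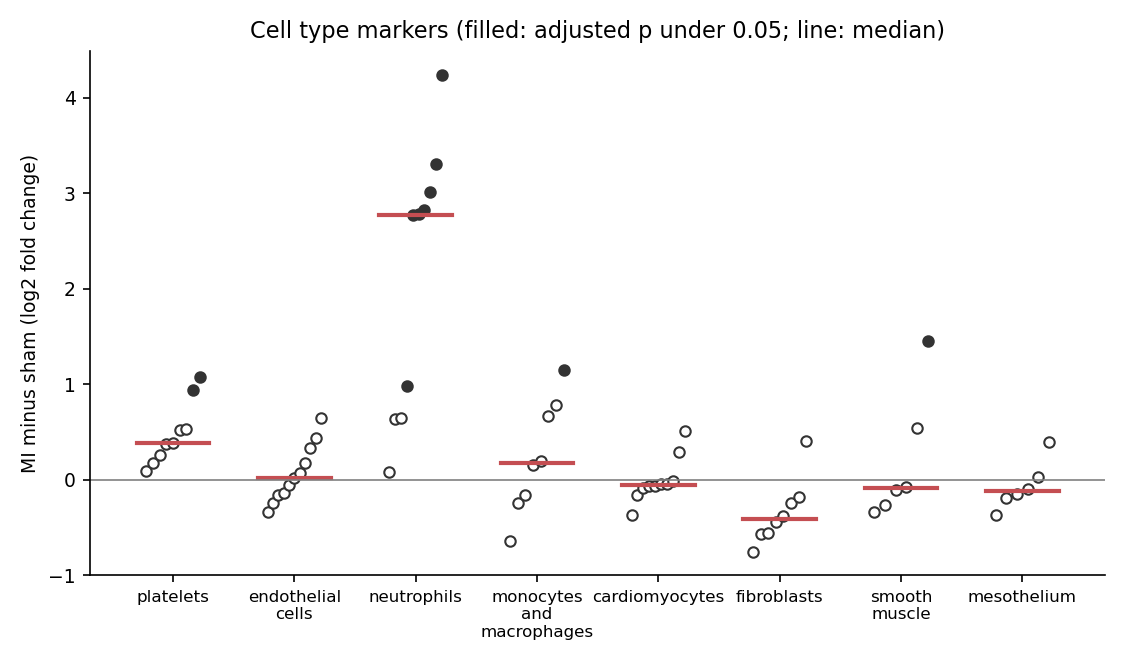
Log2 difference, MI minus sham (vertical axis), of each measured marker gene of 8 cell types (horizontal axis). Filled points have an adjusted p under 0.05, and red lines are list medians. Neutrophil markers stand apart with a median of 2.78, and the endothelial median is 0.02.

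Likeness of the 9 genes within the groups depended on the scaling. Over the 36 pairs of genes, the Pearson coefficient of the deviations of the 8 mice from their group means had a median of 0.45, from -0.74 for Plau with Plaur to 0.91 for Plat with F13a1, and 28 coefficients were above 0. With each array scaled to its 75th percentile, the median was 0.000869 and 18 of 36 coefficients were above 0. The mice share their array and its scaling across all genes, and these coefficients are a description without a test. Plau and Plaur, ligand and receptor, had coefficients of -0.74 and -0.23 on the 2 scales, with the highest Plau and the lowest Plaur signal of the MI group in MI mouse 1. Plau was well above background on only 1 sham array and its dim values move with the scaling, so the coefficients of Plau are uncertain.

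Over all 8 mice, and among 13788 genes detected on all arrays, the genes most like Plaur were Ch25h (r = 0.994) and Cd14 (r = 0.994), and those most like Procr were Coro1a (r = 0.999) and Marcksl1 (r = 0.997). All 4 rose in MI mice, with log2 differences of 2.98, 2.25, 1.63 and 1.31. Coefficients over both groups mostly carry the difference between the groups, and they come from 8 mice, so they are a description of shape alone.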

How the data were processed

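RNA of 8 mice (4 MI, 4 sham-operated, grouped by their labels) was measured on 8 one-colour arrays of 1 slide, scanned together, in 2 rows with 2 mice of each group per row. Scanner intensities were deposited as Feature Extraction 11.0.1.1 gave them (per the file headers), background-subtracted and detrended within each array, and with a surrogate value where a spot did not exceed background. The log2 values deposited by the authors were normalized between arrays with spike-in probes by limma and VSN. Set against the intensities, each array of these values is log2 of the intensity plus a constant (3.16 to 19.6), shifted by a second constant, with no misfit beyond rounding. These constants were applied here to all intensities, so that spots not above background also had a value. Outlier spots were dropped, spots of a probe averaged, and probes were kept if well above background on 4 or more of the 8 arrays, which left 34038 of 55681 probes. Of 26582 probes with a symbol through RefSeq accessions, 19704 were kept.

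Groups were compared in limma 3.58.1 (R 4.3.3) without covariates, with Benjamini-Hochberg adjustment over all retained probes. A limma test stands in for significance analysis of microarrays, the permutation tool of the methods. Single values also had an exact permutation test. Scripts ran in Python 3.11.15 with numpy 2.4.6, scipy 1.17.1, pandas 2.3.3 and matplotlib 3.10.9, and the fit was tested on simulated data. P-values, standard errors and CIs in limma rest on the spread between these mice, moderated toward the spread over all retained probes. The exact permutation test and the unmoderated test use the mice of the gene's own probe alone.

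The brightest retained probe stood for a gene. Named were the 9 genes, every other pathway gene that passed, the 2 genes most like each gene past both thresholds, and the markers with the largest and smallest difference of a list. Actc1, Egfl7, Emcn, F7, F10, Flt1, Itga2b, Kdr, Lcn2, Ngp, Pf4 and the genes of the closing section were named after their values were seen. Cd68 and Ly6c2 were named because they had no retained probe with a symbol. The 9 genes and all lists were chosen with earlier results of these data known. A gene of the pathway lists is not reported here. The array design was built on mm9, so gene positions of GRCm38.p6 were not combined with it. Alternatives were 5 other scalings or background corrections, the deposited log2 values, no filter, detection on all 8 arrays, missing values for spots not above background, the mean of a gene's probes, an unmoderated test per probe with Benjamini-Hochberg adjustment (not the permutation procedure of the methods), a block for replicate number, a block for array row, and each mouse left out in turn.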

Additional observations from a re-analysis of the deposited data

Results flagged for a closer look

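None of the 9 coagulation and fibrinolysis genes had a mouse far from its group by Dixon's ratio. Of the 92 sets examined, each 1 probe in 1 group, 6 had such a mouse, all of them of other pathway genes, and chance flags about 1 in 20. In 3 of the 6, the distant mouse was sham-operated mouse 3: Kng1, which encodes kininogen, read 8.58 there against 5.33 to 5.36 in the other sham-operated mice, Proc, which encodes protein C, read 6.53 against 5.68 to 5.77, and Vkorc1l1, a vitamin K reductase, read 9.63 against 9.15 to 9.22. F7, which encodes factor VII, read 6.10 in sham-operated mouse 4 against 6.43 to 6.49. S100a10, the partner of annexin A2, read 12.53 in sham-operated mouse 1 against 13.07 to 13.15. Mcfd2, a secretion factor for factors V and VIII, read 13.11 in MI mouse 2 against 13.80 to 13.92. The brightest probes of the 6 genes, to which these values belong, did not pass the comparison of the groups, and the cause of the distant values was not tested.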

How the results depend on the processing

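Of the 5 genes called higher, 3 were called with the refitted spike-in model, 2 without the filter on detection, 2 with an unmoderated test after adjustment (5 at 5% unadjusted), and 3 to 5 when a mouse was left out (3 without MI mouse 1, MI mouse 3 or sham-operated mouse 4). None of the 9 was called lower except F3 under normexp (1 gene). Tfpi, at -0.04, changed sign with the mean of its probes (0.062), and ran from -0.126 to 0.0413 with a mouse left out (above 0 without MI mouse 2, MI mouse 4 or sham-operated mouse 3). Of the other pathway genes, 5 higher became 1 with the refitted model, 3 without the filter and 2 with the unmoderated test. The 1 lower became 4 with the 75th percentile, 3 with quantile, 5 with normexp, 2 with the replicate block, and 0 with a spike-in shift alone, without the filter, with the gene mean and with the unmoderated test, and ran from 0 to 1 with a mouse left out. The platelet median of 0.39 was 0.10 with the refitted model and 0.14 with normexp, and the neutrophil median of 2.78 was 0.98 and 1.58. The cause was not tested. Of all calls, 82.8% were higher in MI mice, beside 49.7% (75th percentile), 90.5% (refitted model), 86.7% (spike-in shift), 50.4% (quantile) and 48.9% (normexp).

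All probes called numbered 2590 and became 5955 with the 75th percentile, 1271 with the refitted model, 6173 with quantile, 7057 with normexp, 990 without the filter, 749 with the unmoderated test (5337 at 5% unadjusted), and 1883 to 3213 with a mouse left out. With replicate number as a block they became 4895, and Plau was lost (adjusted p = 0.0503). Same-numbered mice had correlations of 0.24, 0.29, 0.14 and 0.01 of their deviations, and with one of them under 0.1 the numbers were not taken as pairs, although 5 of 8 mice correlated best with their own number. Normexp used median signals. Plau and Tfpi2 have no value with detection on all 8 arrays.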

Other observations

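Several genes that liver makes for the plasma were highest in sham-operated mouse 3, which was the highest of the 8 mice for 13 of the 33 measured pathway genes, beside 19.4% of all probes with a value on every array. Beside Kng1 and Proc these included Serpinc1, which encodes antithrombin (7.74), Serpinf2, which encodes alpha-2 antiplasmin (6.70), Cpb2 (7.08) and Hrg (6.26), as normalized log2 signals. Further liver genes, listed after these values were seen, were mixed. Ttr (8.44 against 6.13 to 7.04), Apoh (7.16 against 4.30 to 5.66) and Cyp2e1 (9.23 against 7.14 to 8.79) were highest in the same mouse, whereas Apoa2 and Ahsg were highest in MI mouse 3. These genes are no members of the 9, whose values in sham-operated mouse 3 stayed within the spread of the group by Dixon's ratio.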
